A study of Rattus norvegicus with 48 samples.

Results

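Complex I genes were described in liver biopsies of 48 male Wistar rats. They were taken as the genes whose platform symbol begins with Nduf and belongs to a probe set with 1 symbol, and each gene was read from its probe set of highest mean over the arrays. This gave 37 genes of the 14506 measured, from 41 probe sets. Of these, 32 encode complex I subunits and 3 encode the assembly factors Ndufaf1, Ndufaf3 and Ndufaf4. Ndufa4, which is now assigned to complex IV, and Ndufs6-ps1, a pseudogene in RefSeq, carry the name as well and were kept apart from the subunits. The remaining subunits of the fixed list of 37 were not analysed here.

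Each rat gave 1 liver biopsy and 1 Affymetrix array, and the labels number each rat as an animal of its own. The IPC+IPO group held 10 rats that received both a preconditioning and a postconditioning procedure around liver ischemia. The IPO group held 10 rats postconditioned at the start of reperfusion, with flow let in for 30 sec and stopped for 30 sec in 3 cycles. The IPC group held 10 rats preconditioned by a short ischemia of 10 min, followed by 10 min of flow, ahead of the long ischemia. The IRI group held 10 rats without either procedure. All 4 of these groups had 30 min of total liver ischemia and were sampled after 30 min of reperfusion. The Sham group held 8 rats without liver ischemia. No genotype, transgene or drug sets the groups apart, and with 8 or 10 arrays a group the precision is set by their number.

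Complex I, the NADH:ubiquinone oxidoreductase, passes electrons from NADH to ubiquinone and pumps protons across the inner mitochondrial membrane. Its matrix arm consists of the NADH-oxidizing N module and the ubiquinone-reducing Q module, and its membrane arm has a proximal and a distal part. In ischemia electrons back up in the chain for lack of oxygen, and on reperfusion the enzyme is known as a source of superoxide through reverse electron transport. The subunits measured here are all encoded in the nucleus, since the mitochondrially encoded subunits carry other names.

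Nuclear genes of the respiratory chain are known to be bound near their starts by the factors NRF1, GABP of the ETS family and YY1. The letters GCATGCG (NRF1), CCGGAAG (ETS) and AAGATGG (YY1) were searched on both strands in RefSeq windows of 300 bases on the GRCr8 assembly. Each window holds 250 bases before and 50 after a start. For some members this start differed from the gene's start in the RefSeq gene table. A window was found for 30 of the 32 subunits. The YY1 letters were in 7 of these windows (23.3%), against 7.01% of all 33469 windows, and the ETS letters in 6 (20%) against 8.75%. The NRF1 letters were in 2 (6.67%) against 3.33%. At least 1 of the 3 motifs was in 12 (40%), against 17.5% of all windows. Each subunit gave 1 window, while all windows were counted without limit to measured or protein-coding genes. These shares therefore come from unlike sets. The NRF1 letters can match both strands at overlapping places, and the last 3 letters of the ETS motif are the first 3 of the YY1 motif, so those can overlap. The following 5 stretches of 150 bases, 125 before and 25 after the start on the gene's strand, belong to genes described below. Motif letters are in capitals.
Ndufa6: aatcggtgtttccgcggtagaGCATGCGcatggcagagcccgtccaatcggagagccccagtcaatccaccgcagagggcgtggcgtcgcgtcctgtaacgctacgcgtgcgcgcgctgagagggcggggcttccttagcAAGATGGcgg
Ndufa9: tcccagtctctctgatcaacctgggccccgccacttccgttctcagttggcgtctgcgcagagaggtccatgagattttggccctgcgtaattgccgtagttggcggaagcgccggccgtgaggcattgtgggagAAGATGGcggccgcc
Ndufs7: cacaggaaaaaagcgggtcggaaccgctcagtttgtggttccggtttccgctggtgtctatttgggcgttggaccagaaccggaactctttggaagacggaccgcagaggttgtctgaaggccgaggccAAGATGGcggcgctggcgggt
Ndufs8: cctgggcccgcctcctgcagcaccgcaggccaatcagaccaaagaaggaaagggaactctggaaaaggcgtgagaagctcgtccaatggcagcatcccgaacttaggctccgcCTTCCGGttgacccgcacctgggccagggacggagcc
Ndufaf1: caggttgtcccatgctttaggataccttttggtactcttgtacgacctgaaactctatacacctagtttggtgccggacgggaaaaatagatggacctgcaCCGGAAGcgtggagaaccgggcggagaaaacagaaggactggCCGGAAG
They lie on the minus strand at chr7:115750293-115750442 (Ndufa6), chr4:161374146-161374295 (Ndufa9), chr7:10110474-10110623 (Ndufs7), chr1:210573674-210573823 (Ndufs8) and chr3:127103996-127104145 (Ndufaf1). Counting the start base of the window as 1, the YY1 letters began at base 16 in Ndufa6, base 11 in Ndufa9 and base 5 in Ndufs7. All 7 subunit windows with the YY1 letters held them after the start on the gene's strand. Ndufs8 carried the ETS letters on the opposite strand 12 bases before its start, and Ndufaf1 carried them from 24 bases before its start and again from base 19. A match of letters is a description of the window and not a binding site.

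The values are RMA log2 expression, and a difference of 1 on this scale is a 2-fold difference. Subunit means over the 48 arrays ran from 8.49 to 10.71. Probe sets differ in affinity, so no gene's level was set against another's. In RefSeq, 15 of the subunits have a pseudogene or like-named copy whose transcripts a probe set could also take up. In a biopsy, fewer cells of a type and less RNA per cell cannot be told apart. The biopsies had all 12 hepatocyte markers at high levels, with group means between 10.08 and 13.32.

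The arrays differed in the standard deviation of their log2 values over all genes that are no member, called array spread here. Its median was 1.91 in IPC+IPO, 1.92 in IPO, 1.88 in IPC, 1.76 in IRI and 1.66 in Sham. The mean of the 32 subunits had a median of 9.67 in IPC+IPO livers (range 9.41 to 10.05), 9.69 in IPO livers (9.12 to 9.90), 9.57 in IPC livers (9.13 to 9.94), 9.68 in IRI livers (9.36 to 9.86) and 9.52 in Sham livers (8.78 to 9.98). The Sham group was the widest and covered almost the whole range of the other groups. Its animals 46 and 47 were the lowest of all 48, at 8.81 and 8.78, and in 27 of the 32 subunits both lay below every other Sham animal. Their arrays correlated at 0.981, below the highest value of 0.995 between any 2 arrays, and no 2 arrays were identical. Animal 30 was the lowest IPO animal in 27 subunits, and animal 34 the highest IPC+IPO animal in 26. IRI animal 7 and IPC+IPO animal 38 had the lowest mean correlation with the other arrays, 0.888 and 0.933.

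**Figure D1:**
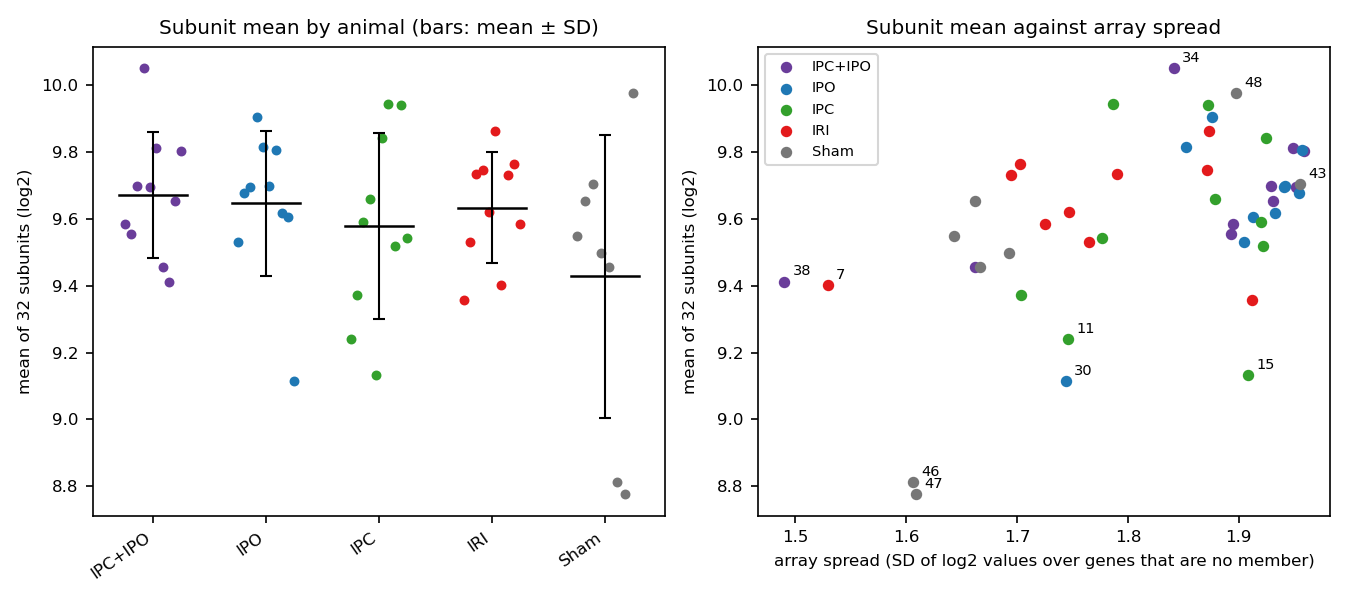
Left, the mean log2 value of the 32 complex I subunits in each animal, with the group mean and SD as bars. Right, the same means against array spread, with animals named in the text numbered. Sham animals 46 and 47 lie lowest at 8.81 and 8.78, and IPO animal 30 lies at 9.12.

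Complex I transcripts moved together from animal to animal. After the group means were removed, the median Pearson correlation over the 496 pairs of subunits was 0.61 across the 48 arrays, and 95.4% of pairs were above 0. Over all pairs of the 14506 genes the median was -0.004, 49.7% were above 0 and the 95th percentile was 0.635. Subunits of complexes II to V, described below, had a median of 0.49, with 87.3% of pairs above 0. With each gene's slope on array spread removed as well, the complex I subunit median was 0.65, against 0.016 over all pairs. Pairs within a module had a median of 0.60 and pairs between modules 0.62. Ndufc2, a membrane-arm subunit, followed the other subunits most closely (median correlation 0.78), and the pseudogene Ndufs6-ps1 stood at 0.77. Ndufs1, the large iron-sulfur subunit of the N module, followed them least, at 0.20. Ndufa11, a membrane-arm subunit, stood at 0.26. The points share their arrays and hence any property of an array.

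Ischemia and reperfusion were set against Sham first. In limma's fit over all genes no subunit passed the adjusted threshold of 0.05 in IRI livers, and 0.241% of all genes did (0.172% as higher and 0.0689% as lower). By size 28 of 32 subunits were above Sham, beside 8467 of all 14506 genes. The median difference was 0.21 on the log2 scale over the subunits and 0.03 over all genes. An unadjusted p under 0.05 was reached by 9 subunits, 28.1% of them, against 11.5% of all genes. None of the 3 Ndufaf assembly factors passed either threshold.

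Q module subunits had the highest median among the modules with more than 1 member, 0.42 over 5 genes, and all 5 were above 0. Ndufs8, a core subunit that carries iron-sulfur clusters, ran from 8.60 over a median of 8.94 to 9.61 in IRI livers, against 7.85, 8.37 and 9.22 in Sham livers. The groups overlapped, with 2 IRI animals above every Sham animal and 1 Sham animal within the upper part of the IRI range. Its difference was 0.60 ± 0.17 (SE), 1.51-fold, with an adjusted p of 0.099 by limma. Ndufs7, the core subunit nearest to the ubiquinone site, ran from 8.54 over 9.13 to 9.99 in IRI livers, against 8.24, 8.81 and 9.33 in Sham livers. That is a difference of 0.42 ± 0.15 (limma adjusted p = 0.231), and 4 IRI animals were above every Sham animal. Ndufa9, an accessory subunit of the Q module that binds a nucleotide cofactor, differed by 0.49 ± 0.21 (limma adjusted p = 0.345). Its Sham values spread from 7.95 to 9.84 and enclosed every IRI value.

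The other modules had lower medians. The N module stood at 0.16, the proximal membrane arm at 0.21 and the distal membrane arm at 0.18. Ndufab1, the mitochondrial acyl carrier protein, ran from 9.29 over 9.90 to 10.01 in IRI livers and from 8.78 over 9.45 to 10.11 in Sham livers, a difference of 0.40 ± 0.13 (limma adjusted p = 0.156). Apart from animal 1, its IRI values sat close together in the upper part of the Sham range. Ndufb7, on the intermembrane side of the distal arm, differed by 0.44 ± 0.17 (limma adjusted p = 0.257).

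Ndufa10 went the other way. This proximal-arm subunit resembles a nucleoside kinase. It ran from 8.40 over 9.39 to 9.65 in IRI livers, against 9.12, 9.72 and 10.19 in Sham livers. A group of 4 IRI animals lay below every Sham animal. The difference was -0.46 ± 0.15 and did not pass (limma adjusted p = 0.157). Ndufs1, Ndufa3 and Ndufb3 were the other subunits below 0.

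The size of the median difference of the subunits in IRI against Sham changed with the arrays that entered. It ran from 0.11 to 0.29 in the 18 fits that left out 1 array. Without Sham animals 46 and 47, which were picked by their low subunit mean, the median difference was 0.02 and 18 of 32 subunits were above 0. Such a pick lowers the mean difference of the subunits by construction. Without Sham animals 43 and 48, which had the highest spread in their group, the median difference was 0.36. These animals also had the highest subunit means of the Sham group, 9.70 and 9.98, so leaving them out raises the mean difference. In that fit 9 subunits passed, against 7.32% of all genes, with Ndufs8 among them at 0.81 (limma adjusted p = 0.00257). After renewed quantile normalization the median was 0.07. With array spread as a covariate it was 0.18, Ndufs8 passed as higher (0.52, limma adjusted p = 0.0274) and Ndufs1 as lower (-0.37, limma adjusted p = 0.0144), against 5.87% of all genes. These fits with other arrays or a covariate were added with the data in view.

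**Figure D2:**
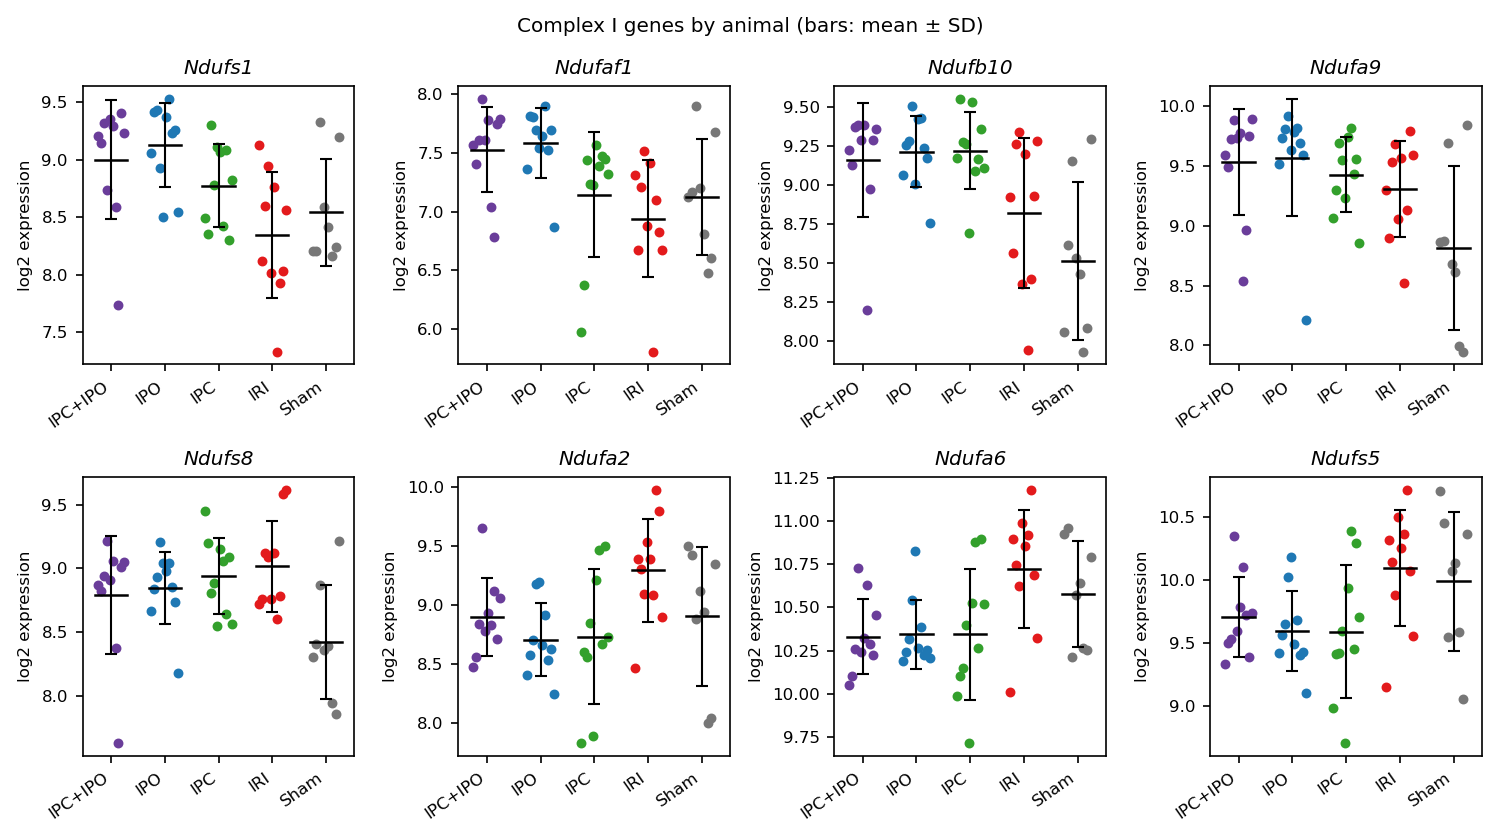
Log2 expression of 8 complex I genes in every animal (1 point each), with the group mean and SD as bars. Ndufs1 and Ndufaf1 were higher in IPO than in IRI livers, with 6 and 8 of 10 IPO animals above every IRI animal. Ndufa2, Ndufa6 and Ndufs5 were lower. Ndufb10 and Ndufa9 had their lowest medians in Sham livers, 8.48 and 8.77, with 2 high Sham animals each.

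Postconditioned livers gave the largest number of calls against IRI. In IPO livers 4 of 32 subunits passed, 1 higher and 3 lower, and 22.8% of all genes passed (12.4% as higher and 10.4% as lower). An unadjusted p under 0.05 was reached by 10 subunits, against 44.5% of all genes. The share of subunits, 12.5%, was below that of all genes. The median difference of the subunits was 0.00, with 16 above and 16 below 0, beside 6663 of all 14506 genes above 0. IRI is the control shared by all 3 comparisons with an intervention group. Of 9 N module subunits, 1 passed as higher (Ndufs1) and 2 as lower (Ndufa2 and Ndufa6), 33.3% of the module. Of 7 proximal-arm subunits, 1 passed as lower (Ndufs5), 14.3%. These shares lie on either side of the 22.8% of all genes. The assembly factor Ndufaf1 rose.

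Ndufs1 ran from 8.50 over 9.24 to 9.53 in IPO livers, against 7.33, 8.34 and 9.12 in IRI livers. A majority of 6 IPO animals lay above every IRI animal, and 2 IPO animals lay near the IRI median. It rose by 0.79 ± 0.20, 1.72-fold (limma adjusted p = 0.0136). Ndufs1 stayed past the threshold in all 20 fits that left out 1 IPO or IRI array, with adjusted p up to 0.0488. Ndufv1, the neighbouring core subunit that binds NADH and the flavin, ran from 9.30 over 10.06 to 10.18 in IPO livers, against 9.30, 9.92 and 10.03 in IRI livers, and did not pass (0.23 ± 0.13, limma adjusted p = 0.137). For Ndufv1, 5 IPO animals were above every IRI animal and 1 was below every one.

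Ndufaf1, an assembly factor of the membrane arm, ran from 6.87 over 7.67 to 7.90 in IPO livers, against 5.81, 6.99 and 7.52 in IRI livers. Of the 10 IPO animals, 8 were above every IRI animal. It rose by 0.64 ± 0.19, 1.56-fold (limma adjusted p = 0.0217). Without IRI animal 7, which held the lowest value, the difference was 0.52 and did not pass (limma adjusted p = 0.0724). Ndufaf3 and Ndufaf4, which act together on the Q module, differed by 0.02 and 0.08 and did not pass.

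The 3 subunits that fell are small accessory proteins. Ndufa2, an N module subunit with a thioredoxin-like fold, ran from 8.25 over 8.64 to 9.19 in IPO livers, against 8.47, 9.35 and 9.98 in IRI livers. The groups overlapped, with 2 IPO animals below every IRI animal. Ndufa2 fell by 0.59 on the log2 scale, SE 0.20 (limma adjusted p = 0.0314). Ndufa6, which binds an acyl carrier protein at the edge of the matrix arm, ran from 10.19 over 10.26 to 10.82 in IPO livers, against 10.01, 10.80 and 11.18 in IRI livers. Most IPO values sat below most IRI values, but IRI animal 1 was lower than all of them. It fell by 0.38, SE 0.13 (limma adjusted p = 0.0357).

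Ndufs5, on the intermembrane side of the proximal arm, ran from 9.10 over 9.53 to 10.18 in IPO livers, against 9.15, 10.20 and 10.72 in IRI livers. The IRI values were mostly higher, but the lowest value of each group was alike. Ndufs5 fell by 0.50, SE 0.19 (limma adjusted p = 0.0492). A second probe set of Ndufs5, fitted together with all probe sets of 1 symbol, fell by 0.56 (limma adjusted p = 0.0259). Leaving out single arrays ended the call in 6 of 20 fits for Ndufa2, in 11 for Ndufa6 and in 15 for Ndufs5. All 3 lower calls were lost after median centring (limma adjusted p = 0.0616, 0.0809 and 0.0949), without the 14 arrays of lowest spread (limma adjusted p = 0.171, 0.161 and 0.224) and with spread as a covariate.

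The members that rose and those that fell differed in how they followed array spread. Within groups, Ndufs1 had a slope of 0.37 log2 per 0.1 of spread (limma adjusted p = 1.93e-16) and Ndufaf1 one of 0.32 (limma adjusted p = 3.61e-11). Ndufa9 (0.30), Ndufb6 (0.29), Ndufb10 (0.22) and Ndufv1 (0.21) followed. Ndufa2 had a slope of 0.00, Ndufa6 of -0.05 and Ndufs5 of -0.06, and none of the 3 passed. Over the subunits, 20 of 32 slopes (62.5%) passed as positive and none as negative, against 41.9% and 41.7% of all genes.

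With spread as a covariate no member passed in IPO against IRI, and 0.0138% of all genes did. The Ndufs1 difference was then 0.27 (limma adjusted p = 0.299) and that of Ndufaf1 0.19 (limma adjusted p = 0.624). Ndufa2 then stood at -0.59 (limma adjusted p = 0.299), Ndufa6 at -0.30 and Ndufs5 at -0.41. The subunit median was -0.15, and 6 of 32 were above 0, beside 6464 of all 14506 genes. After renewed quantile normalization the subunit median was -0.14. Without the 14 arrays of lowest spread, 3 subunits passed as higher, 0 as lower, and 1 assembly factor passed, against 7.42% of all genes. The subunit median was then 0.09, with 21 of 32 above 0. Median array spread, 1.92 in IPO and 1.76 in IRI livers, moved with these differences, and its part in them was not tested.

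**Figure D3:**
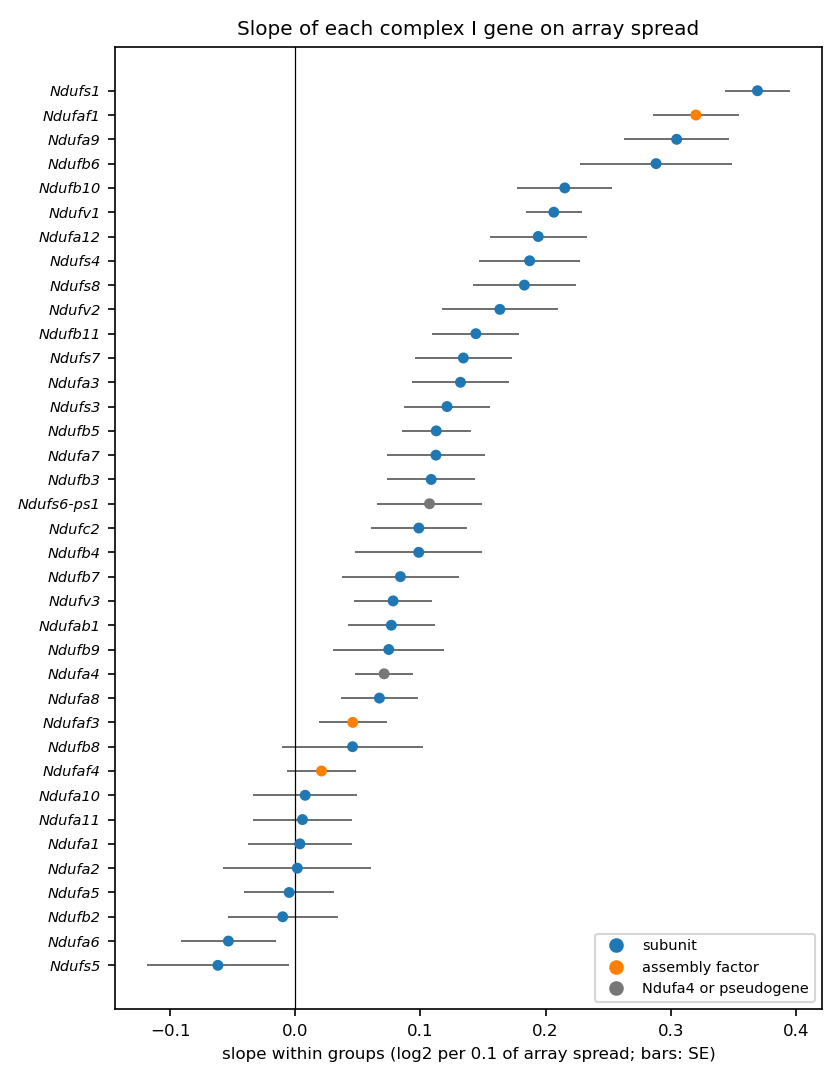
Slope of each of the 37 genes on array spread within groups, in log2 per 0.1 of spread, with SE bars, coloured by class. Ndufs1 (0.37) and Ndufaf1 (0.32) have the highest slopes, and Ndufa6 and Ndufs5 lie just below 0.

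**Figure D4:**
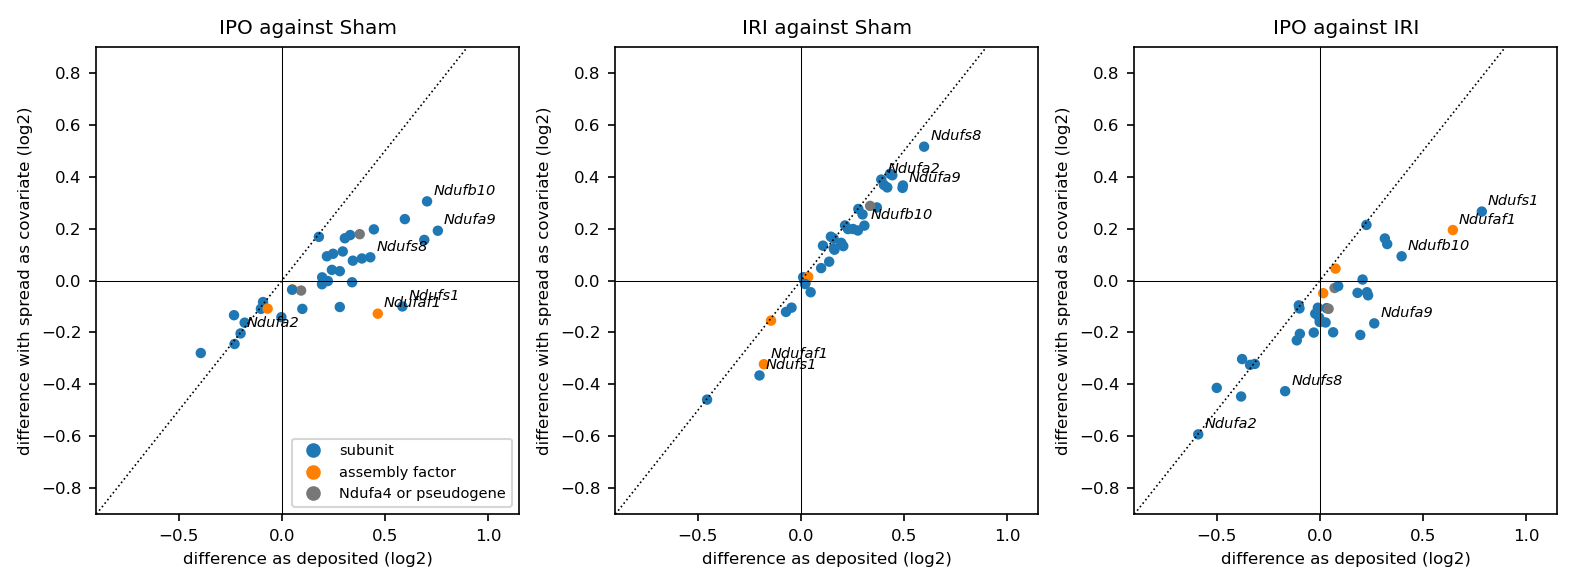
Difference of group means for the 37 genes as deposited (horizontal axis) and with array spread as a covariate (vertical axis), in log2, for 3 comparisons; the dotted line marks equal values. In IPO against IRI, Ndufs1 lies at 0.79 and 0.27, while Ndufa2 stays at -0.59.

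Preconditioned livers were compared with IRI next. No subunit and no Ndufaf factor passed in IPC livers, and 0.0276% of all genes did. An unadjusted p under 0.05 was reached by 7 subunits, against 19.3% of all genes. The median difference of the subunits was -0.05, with 12 of 32 above 0, beside 6826 of all 14506 genes. It was -0.15 after renewed quantile normalization. Ndufa6 ran from 9.72 over 10.33 to 10.89 in IPC livers, against 10.01, 10.80 and 11.18 in IRI livers, a difference of -0.38 ± 0.13 (limma adjusted p = 0.168). Ndufa2 ran from 7.83 over 8.70 to 9.51 in IPC livers, against 8.47, 9.35 and 9.98 in IRI livers, a difference of -0.56 ± 0.20 (limma adjusted p = 0.168). In both genes 2 IPC animals lay below every IRI animal, and the rest overlapped. Ndufs5 (-0.51), Ndufb2 (-0.39) and Ndufa1 (-0.35), which are all small accessory subunits of the membrane arm, were also lower in value without passing. Ndufb10, an accessory subunit on the intermembrane side of the distal arm, was above IRI by 0.40 ± 0.16 (limma adjusted p = 0.199). Leaving out IRI animal 1, whose values were low, brought Ndufa6 past the threshold (limma adjusted p = 0.0489).

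Livers with both procedures gave no call either. In IPC+IPO against IRI no gene of the 14506 passed (0%), and 7 subunits reached an unadjusted p under 0.05, against 21.5% of all genes. The subunit median was 0.06, with 19 of 32 above 0, beside 6706 of all 14506 genes. It was -0.05 with spread as a covariate and -0.04 after renewed quantile normalization. Ndufa3, a small subunit of the proximal arm, ran from 9.25 over 9.51 to 9.75 in IPC+IPO livers, against 8.43, 8.96 and 9.77 in IRI livers. The IPC+IPO values were narrow and lay in the upper part of the IRI range. The difference was 0.54 ± 0.14 (limma adjusted p = 0.0942). Ndufs1 ran from 7.73 over 9.22 to 9.40 in IPC+IPO livers, against 7.33, 8.34 and 9.12 in IRI livers, a difference of 0.66 ± 0.20 (limma adjusted p = 0.0969), with 7 animals above every IRI animal. Ndufaf1 differed by 0.59 ± 0.19 (limma adjusted p = 0.107), again with 7 animals above every IRI animal. Ndufa6 was lower by value, -0.39 ± 0.13 (limma adjusted p = 0.109), and Ndufb3, of the distal arm, was above IRI by 0.32 ± 0.13 (limma adjusted p = 0.157). Leaving out single arrays gave up to 3 called subunits, for which the share of all genes is not given. With spread as a covariate no subunit was called, against 0.00689% of all genes.

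Each intervention group was also set against Sham, and these 3 comparisons share the Sham animals. In IPC+IPO livers 3 subunits passed, all higher (9.38% of them, against 3.62% of all genes, 3.05% as higher and 0.565% as lower). In IPO livers 6 passed, all higher (18.8%, against 23.2% of all genes, 15.4% as higher and 7.76% as lower). In IPC livers 2 passed as higher and 1 as lower (9.38%, against 6.58% of all genes, 5.6% as higher and 0.986% as lower). The subunit medians were 0.25 in IPC+IPO, 0.25 in IPO and 0.19 in IPC, and the medians of all genes lay between 0.00 and 0.01.

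Ndufb10 passed in all 3. It ran from 8.19 over 9.29 to 9.39 in IPC+IPO livers, from 8.76 over 9.25 to 9.51 in IPO livers and from 8.69 over 9.22 to 9.56 in IPC livers, against 7.93, 8.48 and 9.30 in Sham livers. Most Sham animals lay below most animals of the other 3 groups, while 2 Sham animals were as high as them. The differences were 0.65 ± 0.17 (limma adjusted p = 0.0311), 0.70 ± 0.17 (limma adjusted p = 0.00668) and 0.71 ± 0.17 (limma adjusted p = 0.0122), about 1.57, 1.63 and 1.64-fold. In IRI livers Ndufb10 had a median of 8.93 and a range of 7.94 to 9.34, between these groups and Sham. Its call in IPC+IPO livers was lost in 12 of the 18 fits that left out 1 array, with only both groups fitted (limma adjusted p = 0.137) and after renewed quantile normalization (limma adjusted p = 0.0605). In IPO and IPC livers all 18 such fits kept it past the threshold.

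Ndufa9 and Ndufa12, accessory subunits of the matrix arm, passed in IPC+IPO and IPO livers. Ndufa9 had a median of 9.73 in IPC+IPO livers and 9.71 in IPO livers, against 8.77 in Sham livers, and rose 1.65-fold (limma adjusted p = 0.0451) and 1.69-fold (limma adjusted p = 0.0133). Ndufa12 had medians of 9.02 and 9.003, against 8.38 in Sham livers, and rose 1.5-fold (limma adjusted p = 0.0413) and 1.51-fold (limma adjusted p = 0.0133). Renewed quantile normalization ended these 4 calls: the adjusted p by limma was 0.0754 and 0.0508 for Ndufa9 and 0.132 and 0.127 for Ndufa12, in IPC+IPO and in IPO livers. With only both groups fitted the IPC+IPO calls were lost as well (limma adjusted p = 0.152 for Ndufa9 and 0.167 for Ndufa12), and each was lost in 14 of 18 fits that left out 1 array. The IPO calls passed in all 18 such fits. The other subunits called in IPO livers, named after their values were seen, were Ndufs7 (0.45), Ndufs1 (0.58) and Ndufb6 (0.69), a distal-arm subunit. In IPC livers Ndufs7 rose by 0.54 (limma adjusted p = 0.0287), and Ndufa10 fell by 0.46 (limma adjusted p = 0.0484), with 3 IPC animals below every Sham animal. Leaving out single arrays ended the Ndufs7 call in 8 of 18 fits and the Ndufa10 call in 13. The Ndufa10 call was also lost with only both groups fitted (limma adjusted p = 0.0789), with the trended and robust variance model (0.0596), after median centring (0.0988) and without the 14 arrays of lowest spread (0.431). That of Ndufs7 was lost after renewed quantile normalization (limma adjusted p = 0.148).

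The number of higher calls against Sham changed with the Sham animals that entered. Animals 46 and 47 were picked by their low subunit mean, so leaving them out lowers the mean difference of the subunits by construction. Without Sham animals 46 and 47 none of the subunits passed as higher in any of the 3 groups, and Ndufa10 stayed the 1 lower call in IPC livers (-0.61, limma adjusted p = 0.0367). In this fit 0.0827% of all genes passed in IPC+IPO, 3.51% in IPO and 0.944% in IPC livers. Animals 43 and 48, picked by spread, also had the highest subunit means of the Sham group, so leaving them out raises that difference. Without Sham animals 43 and 48, 18 subunits passed as higher in IPC+IPO, 20 in IPO and 13 in IPC livers. Calls in either direction then covered 28.5%, 47.2% and 27.5% of all genes, in the same order. With spread as a covariate no subunit passed in any of them, against 0.234% of all genes in IPC+IPO, 0% in IPO and 1.9% in IPC livers. Without IPO animal 30, 12 subunits passed as higher in IPO livers, and 29.9% of all genes passed in either direction. Sham 46 and 47 were among the 4 arrays of lowest spread in the study, and the part of spread in these calls was not tested.

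**Figure D5:**
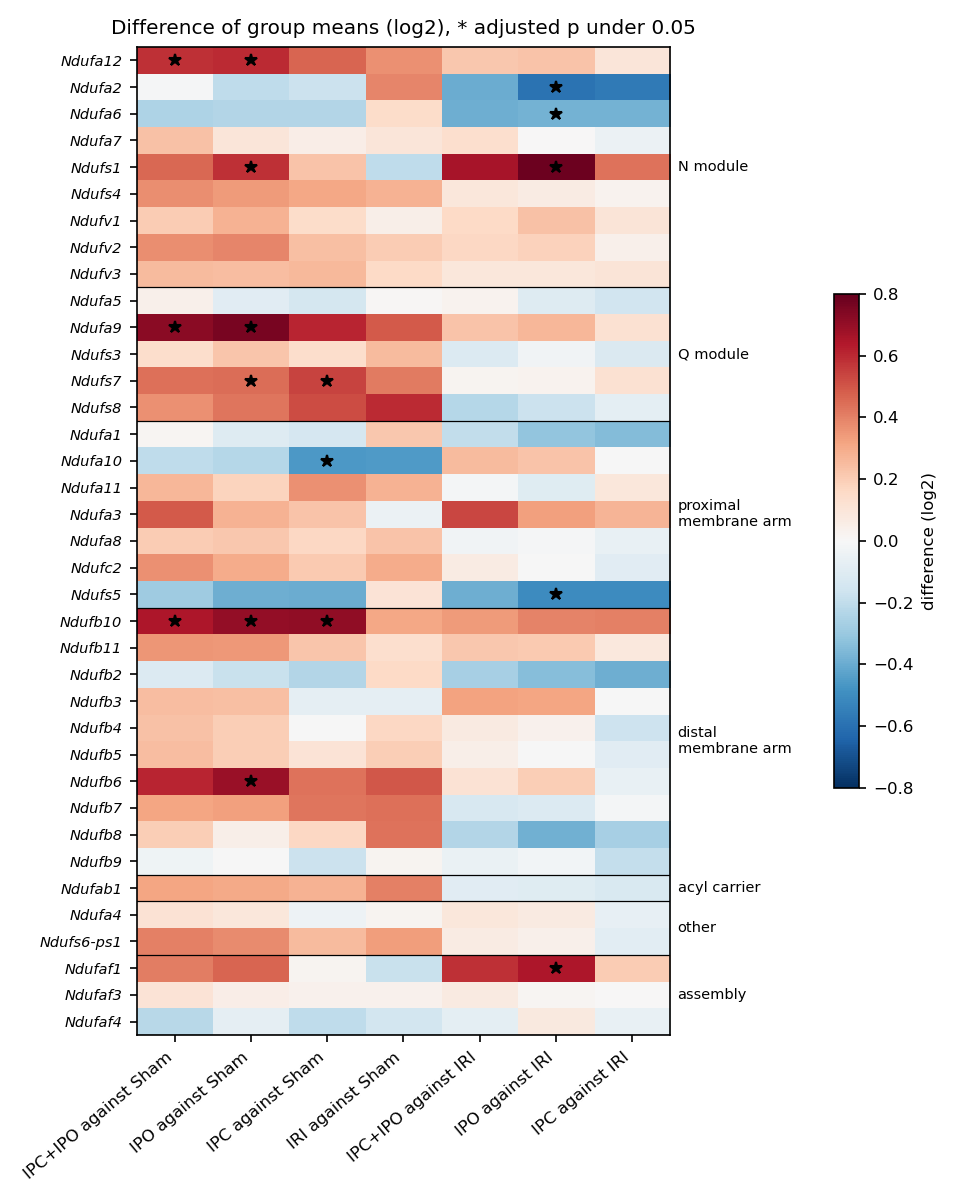
Difference of group means (log2, colour) for the 37 genes in 7 comparisons, with a star where limma's adjusted p was under 0.05; genes are ordered by module. Ndufb10 is starred in all 3 comparisons of an intervention group with Sham, and the 5 stars of IPO against IRI fall on Ndufs1, Ndufa2, Ndufa6, Ndufs5 and Ndufaf1.

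No complex I gene passed between the intervention groups. No gene at all passed in IPO against IPC, in IPC+IPO against IPC or in IPC+IPO against IPO (0% each), nor in the interaction of the procedures (0%). An unadjusted p under 0.05 was reached by 1 subunit in each of the first 2, against 4.06% and 1.62% of all genes, by none in the third, against 3.32%, and by 4 in the interaction, against 20.3%. Ndufb3 had the smallest p in IPO against IPC (0.32 ± 0.13, limma adjusted p = 0.835). The interaction of smallest p was that of Ndufa2, 0.76 ± 0.28 (limma adjusted p = 0.209): the effect of IPC was -0.56 without IPO, and with both procedures the gene stood 0.19 above IPO alone. Ndufs5 (0.61) and Ndufa1 (0.47) had interactions of the same sign that did not pass. limma's moderated F test over the 5 groups passed for 5 of the 37 genes (Ndufb10, Ndufs1, Ndufa3, Ndufaf1 and Ndufa12, adjusted p between 0.0125 and 0.0489), against 14.4% of all genes.

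Ndufa4, whose protein is a subunit of cytochrome c oxidase, had no call in any main comparison. Its medians were 11.58 in IPC+IPO, 11.61 in IPO, 11.59 in IPC, 11.54 in IRI and 11.52 in Sham livers. The differences were 0.09, 0.07 and -0.06 for the 3 intervention groups against IRI and 0.02 for IRI against Sham, with SDs within groups of 0.07 to 0.31, and the sign of the last turned under other scalings. Ndufab1 had no call in the main comparisons, with -0.09, -0.10 and -0.12 against IRI. Ndufv3, a small N module subunit, has a second probe set that had the opposite sign in IRI against Sham (-0.14, against 0.16 for the one used) and in IPO against IRI (-0.14 against 0.09), so its direction is uncertain.

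Assembly factors of complex I with other names were taken from a list, and 7 of 11 were measured. None passed in the main comparisons. Timmdc1 and Tmem126b, which build the membrane arm, were above Sham in IRI livers by 0.37 and 0.50 (limma adjusted p = 0.363 and 0.388), and all 7 factors were above 0 there with a median of 0.30. Ecsit, a partner of Ndufaf1, was above IRI by 0.44 in IPO livers (limma adjusted p = 0.0796).

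The nuclear subunits of complexes II to V with cytochrome c gave the wider frame, with 39 measured. In IRI against Sham their median was 0.18 and 1 passed (2.56%, against 0.241% of all genes), the ATP synthase subunit Atp5mc2, which rose 1.89-fold (limma adjusted p = 0.0212). With spread as a covariate 12 passed there, all higher, against 5.87% of all genes. In IPO against IRI 4 rose and 5 fell (23.1%, beside 22.8% of all genes). The flavoprotein Sdha of complex II rose by 0.70 (limma adjusted p = 0.0183), Sdhb by 0.45 (limma adjusted p = 0.0234) and cytochrome c, Cycs, by 0.70 (limma adjusted p = 0.0155). In complex III, Uqcrb rose by 0.42 and Uqcrq fell by 0.26 (limma adjusted p = 0.0362 and 0.0422). Cox4i2 of complex IV, at low means of 4.41 in IPO and 4.97 in IRI livers, fell by 0.56 (limma adjusted p = 0.00819). The ATP synthase subunits Atp5mg, Atp5f1e and Atp5po fell by 0.68, 0.48 and 0.45 (limma adjusted p = 0.0229, 0.0287 and 0.0369). With spread as a covariate none of the 39 passed in IPO against IRI, and Sdha stood at 0.18, Sdhb at 0.12 and Cycs at 0.33 (limma adjusted p = 0.508, 0.654 and 0.431). In IPO against Sham 17 of 39 passed as higher (43.6%, against 15.4% of all genes), and none with spread as a covariate, where 0% of all genes passed. Their own animal-to-animal correlation had a median of 0.49 over 741 pairs.

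Of 12 regulators of mitochondrial biogenesis, 3 rose and 1 fell in IPO against IRI (33.3% called, beside 22.8% of all genes). Tfb1m and Tfb2m, mitochondrial factors of ribosomal RNA methylation and transcription, rose by 0.63 and 0.62 (limma adjusted p = 0.0114 and 0.0448). Gabpa, the DNA-binding part of GABP, rose by 0.56 (limma adjusted p = 0.0258), and the nuclear receptor Esrra fell by 0.29 (limma adjusted p = 0.0188). None of the 12 passed in the other main comparisons. With spread as a covariate none of these 4 passed in IPO against IRI.

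Marker lists of liver cell types and blood are given beside these differences. Erythroid markers (4 of 7 measured) had a median difference of 0.78 in IRI against Sham, where none of the 4 passed, and their summed linear level ran from 3338 to 10561 in IRI livers, against 2486 to 8381 in Sham livers. Kupffer cell markers (10 of 10 measured) differed by a median of 0.43 between IPC and IRI livers, where none passed, and of 0.29 between IPO and IRI livers, where 2 passed as higher (20%, against 12.4% of all genes). With spread as a covariate none passed in IPO against IRI and the median was -0.08. Their summed level ran from 1527 to 4144 in IPO and from 2386 to 4087 in IPC livers, against 1582 to 3613 in IRI livers. Hepatocyte markers had a median of 0.26 in IPO against IRI, with 5 higher and 1 lower call (50%, against 22.8% of all genes), and with spread as a covariate a median of 0.08 and no call. Their summed level ran from 61580 to 70522 in IPO livers, against 50293 to 69209 in IRI livers. Stellate cell markers (9 of 9 measured) had a median of -0.31 in IRI against Sham, where 1 passed as lower (11.1%, against 0.0689% of all genes). Their summed level ran from 797 to 1426 in IRI livers, against 967 to 1706 in Sham livers. Sinusoidal endothelial markers (4 of 7 measured) had a median of 0.30 in IPO and 0.34 in IPC+IPO against IRI, where none passed. With spread as a covariate these medians were 0.09 and 0.18. Kupffer cell markers had 0.37 in IPC+IPO against IRI, and none passed. In IPO against IRI, cholangiocyte markers (4 of 5) had 0.15 without a call. Neutrophil markers (7 of 7) had -0.13 there, with 1 lower call (14.3%, against 10.4% of all genes). RMA values do not reach 0, so none of these markers was at 0. The part of these cells in the complex I differences was not tested.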

How the data were processed

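The authors deposited log2 expression values per probe set, made with RMA in Affymetrix Expression Console per the submitters' processing notes; RMA corrects background, normalizes quantiles and summarises probes. No version, filter or batch is given in the sources used here. Of 29215 probe sets, 15310 had 1 symbol in the platform annotation, 323 several and 13582 none. Groups came from the sample titles. All 5 groups entered 1 limma 3.58.1 fit in R 4.3.3 (lmFit and eBayes, 43 residual degrees of freedom, two-sided, no covariate), with Benjamini-Hochberg adjustment over 14506 genes and a threshold of 0.05. No filter on dim genes was used, so all 37 members were tested. On simulated data of 14506 genes with independent noise, 72% of genes changed 1.5-fold were found in IPO against IRI and 75% in IRI against Sham. In the real arrays 83.6% of all genes had a slope on array spread that passed, which this noise lacks. The simulated shares therefore do not carry over to the real comparisons.

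The members and lists were chosen with earlier results of these data known. Named members were those past the threshold in a main comparison (up to 12), otherwise the 6 of smallest p, and the 3 of smallest p elsewhere; Ndufa4 and Ndufab1 were always described, and in other lists up to 4 calls or the 2 of smallest p. Alternatives were the groups compared alone, another variance model, array weights, array spread as a covariate, median centring, renewed quantile normalization, other probe sets or filters, stricter thresholds, and arrays left out singly or together. Promoter windows were taken from RefSeq, and 34 of 37 members were matched by gene identifier. Of these windows, 24 were placed at the gene's start in the RefSeq gene table, and the others at another start. Figures used matplotlib 3.10.9 in Python 3.11.15.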

Additional observations from a re-analysis of the deposited data

Results flagged for a closer look

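Single animals stood far from the rest of their group, by Dixon's ratio at its 95% critical value, in 34 of 185 gene and group combinations with 8 or 10 animals; chance gives about 1 in 20, or 9.25 here. The combinations are not independent, since the genes share their arrays. IPO animal 30 was the low value in 18 of the 34. In this animal the log2 values were 8.14 for Ndufa12, 8.71 for Ndufa3, 11.4 for Ndufa4, 8.74 for Ndufa8, 8.21 for Ndufa9, 6.87 for Ndufaf1, 9.40 for Ndufb11, 9.003 for Ndufb4 and 9.58 for Ndufb5. It had 8.53 for Ndufb6, 9.47 for Ndufc2, 9.11 for Ndufs3, 8.26 for Ndufs4, 9.57 for Ndufs6-ps1, 8.80 for Ndufs7, 8.18 for Ndufs8, 9.30 for Ndufv1 and 8.45 for Ndufv2. Its array had the lowest spread of the IPO group, 1.74, and whether that bears on these values was not tested.

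IPC+IPO animal 38, whose array correlated poorly with the others, was low in Ndufs1 (7.73), Ndufs3 (8.71), Ndufs8 (7.63) and Ndufv1 (8.89). IPC+IPO animal 37 was low in Ndufb10 (8.19). IPC+IPO animal 34 was high in Ndufa7 (9.17), Ndufaf3 (7.67) and Ndufb8 (10.14). IRI animal 1 was low in Ndufa1 (10.32), Ndufab1 (9.29) and Ndufb8 (8.86), and IRI animal 10 in Ndufa4 (11.24) and Ndufb3 (9.87). IRI animal 7 was low in Ndufaf1 (5.81) and IRI animal 6 high in Ndufa12 (9.11). IPC animal 11 was low in Ndufa4 (10.71).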

How the results depend on the processing

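The number of subunits called in IRI against Sham, 0 as deposited, was 8 with array weights and 2 after renewed quantile normalization. It was 2 with spread as a covariate (5.87% of all genes), 1 without IRI 7 and IPC+IPO 38 (0.896%), and 9 without Sham 43 and 48 (7.32%). In IPC against IRI it was 1 with array weights. In IPO against IRI, 4 as deposited, it was 7 with only the groups compared, 10 with array weights, 0 with the covariate, 2 after median centring, 7 after renewed quantile normalization, 0 at an adjusted p under 0.01, 2 at a 1.5-fold minimum and 2 without IRI 7 and IPC+IPO 38; Ndufaf1 was lost (0) with the covariate and under 0.01. In IPC+IPO against IRI it was 9 with array weights and 1 without the 14 arrays of lowest spread, and 1 assembly factor passed with weights. The cause of these changes was not tested, except that the stricter thresholds lower a count by construction. Counts given without a share of all genes, such as those with array weights or after renewed quantile normalization, lack that frame. Whether they lie above or below the share of all genes is not shown. They are therefore not read as a result about complex I.

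Without the 14 arrays of lowest spread, which left 2 Sham arrays, the subunit median of IRI against Sham was -0.20. Ndufs8 (-0.11), Ndufab1 (-0.0867), Ndufs7 (-0.15), Ndufb7 (-0.18), Ndufa9 (-0.43) and Ndufa4 (-0.13) then turned sign in IRI against Sham, Ndufb10 (-0.043) and Ndufs7 (-0.018) in IPC against Sham, and Ndufa9 (-0.044) and Ndufa12 (-0.12) in IPO against Sham. So did Ndufa12 (-0.14) and Ndufa9 (-0.036) in IPC+IPO against Sham and Ndufab1 (0.00021) in IPO against IRI. Ndufa4, near 0, turned sign in IRI against Sham with the covariate (-0.0098), after quantile normalization (-0.12) and without Sham 46 and 47 (-0.057), and in IPO against IRI with the covariate (-0.029).

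Leaving out 1 array at a time gave 0 to 2 called subunits in IRI against Sham (2 without Sham 48), 0 to 1 in IPC against IRI (1 without IRI 1), 1 to 7 in IPO against IRI (1 without IRI 7, 7 without IRI 1) and 0 to 3 in IPC+IPO against IRI (3 without IRI 1). Assembly factors ranged from 0 to 1 in both IPO and IPC+IPO against IRI. The share of all genes called moved as well. In IPO against IRI it was 29.3% without IPO 30, against 22.8% with all arrays. For the other single omissions the share is not given, so these counts are not read as a result about complex I. Ndufa4 ranged from -0.023 to 0.053 in IRI against Sham and from -0.094 to 0.020 in IPC against IRI. No paired analysis was possible because each animal number occurs in 1 group. The trended and robust variance model, omission of the dimmest genes (33.3%), the probe set of largest variance and testing all probe sets moved the count of subunits in none of the 4 main comparisons (IRI against Sham and the 3 intervention groups against IRI), the comparisons in which it was recomputed. Of the named genes they changed 1 call, that of Ndufa10 in IPC against Sham, lost with the trended and robust model (limma adjusted p = 0.0596).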
